A study of Homo sapiens with 10 samples.

Results

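HSPD1 and HSPE1 lie head to head on chromosome 2, and the peaks of HSF1 over their common promoter were followed through the peak lists of 6 ChIP-seq libraries. Members were all peaks overlapping chr2:198360000-198370000 (hg19), a window chosen because it holds both gene starts. They numbered 6 of the 8124 peaks listed, 1 in each library, and formed 1 of 6597 regions when overlapping peaks of all lists were joined. The libraries came from HCT116, an established human colon cancer line. WT cells were compared with FBXW7 KO cells, which lack the substrate-recognition subunit of a ubiquitin ligase. Each line was either left untreated (1 library each) or exposed to 42 °C for 1 h (heat shock, 2 libraries each). In all 6, chromatin was precipitated with 5 µg of the same HSF1 antibody. The labels do not say whether the KO line is a single clone or whether the heat shock replicates are separate cultures, so differences between replicates may be technical. Peak lists hold no measure of FBXW7 itself, so the knockout was not checked here.

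HSPD1 encodes HSP60, the chaperonin of the mitochondrial matrix, which encloses unfolded proteins in a chamber where they can fold. HSPE1 encodes HSP10, the co-chaperonin that forms the lid of this chamber. Transcription of the pair in opposite directions from a shared stretch of DNA lets both subunits be induced together on heat stress. HSF1 binds as a trimer to heat shock elements, which are built from units GAA and TTC in alternation.

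The reference promoter holds an unbroken run of such units, and it is shown first because it is the kind of sequence that HSF1 is known to recognise. RefSeq (GRCh38.p14) places the HSPE1 start at chr2:197500379 on the plus strand. It gives HSPD1, on the minus strand, an outer start at chr2:197500274 and an inner start at chr2:197499840. The outer start faces the HSPE1 start across 104 bp, and the inner start lies 539 bp from it. Windows of 300 bases, from 250 before to 50 after each start, were searched on both strands for GAANNTTCNNGAA and TTCNNGAANNTTC, that is for 3 units in a row with 2 bases between units. The window of the HSPD1 inner start held 2 overlapping matches, which together formed an element of 4 units (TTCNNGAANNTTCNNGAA). It spanned 18 bases at chr2:197500068-197500085, 228 to 245 bases upstream of the inner start and 294 to 311 bases upstream of the HSPE1 start. The element thus lay between these 2 starts, within the span of the longer HSPD1 transcript. The windows of the HSPD1 outer start and of HSPE1 held no match, and neither covers the place of the element. A further 38 bases between the windows were not searched.

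Elements of 3 units were found in 172 of 35116 RefSeq promoter windows (0.49%), and elements of 4 units in 12 (0.0342%), in 12 genes. Of the genes listed here for comparison, 5 of the 15 cytosolic heat shock genes with a window held 3 units in a row: HSPA8, HSP90AA1, HSP90AB1, DNAJA1 and CHORDC1. CHORDC1 was the other gene in these lists with 4 or more units. None of 9 mitochondrial chaperone and protease genes with a window did so (HSPA9, TRAP1, DNAJA3, GRPEL2, LONP1, CLPX, HSCB, DNAJC19 and AFG3L2), and 1 of them, HSPA9, held 2 units in a row. Elements upstream of a start, for HSPA8 and HSP90AB1 the nearer of 2 to the start, are set out here so that the HSPD1 element can be read beside those of the cytosolic genes, with the element in capitals, 5′ to 3′ in the direction of each gene.
HSPD1 inner start, chr2:197500062-197500090, minus strand: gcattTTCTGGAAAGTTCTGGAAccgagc
CHORDC1, an HSP90 co-chaperone, chr11:90223081-90223115, minus strand: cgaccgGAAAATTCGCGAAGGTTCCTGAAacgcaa
HSP90AA1, a cytosolic HSP90, chr14:102087114-102087138, minus strand: gggttcTTCCGGAAGGTTCgggagg
HSP90AB1, a cytosolic HSP90, chr6:44247825-44247849, plus strand: agattgTTCTGGAAGCTTCtggatt
HSPA8, a cytosolic HSP70, chr11:123062173-123062197, minus strand: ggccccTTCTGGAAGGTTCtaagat

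The 104 bases between the HSPD1 outer start and the HSPE1 start lie outside both annotated genes and are shown as the shared core of the promoter, at chr2:197500275-197500378 on the plus strand (GRCh38.p14). Capitals mark an E-box, CACGTG, a palindrome, which was picked out after the sequence was seen and occurs in 7.26% of all windows.
HSPD1 to HSPE1 interval: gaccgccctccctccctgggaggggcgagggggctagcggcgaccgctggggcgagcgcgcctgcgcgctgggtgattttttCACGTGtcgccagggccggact
The windows of all 3 starts were rich in G and C, at 70.7% (HSPD1 inner), 70% (HSPD1 outer) and 67% (HSPE1), against a median of 58.7% over all windows. A GC box (GGGCGG, either strand) was present in each of the 3, as in 45% of all windows. No TATA box (TATAA) and no CCAAT box was found in any of the 3, against 20.4% and 34.6% of all windows with such a match on either strand. HSPE1-MOB4, a read-through transcript unit, shares the HSPE1 window exactly, so the peak cannot be assigned to HSPE1 rather than to it. Such matches are descriptions of the reference sequence. The peaks are on hg19, so where the element falls within each peak was not determined.

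**Figure D1:**
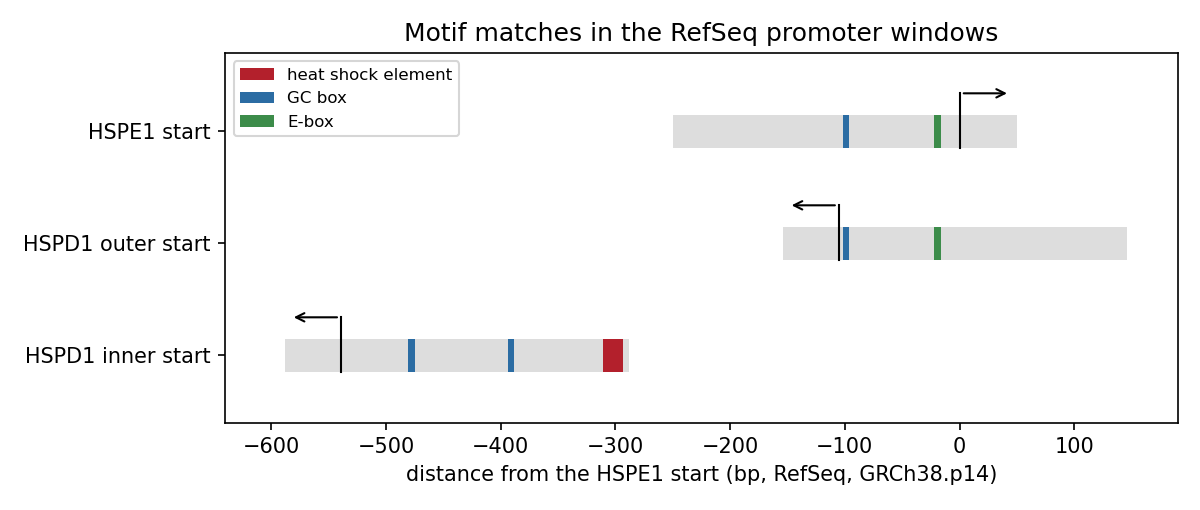
Promoter windows of HSPE1 and of both HSPD1 starts (grey bars) against distance in bp from the HSPE1 start in RefSeq, GRCh38.p14, with arrows for the direction of transcription and coloured blocks for motif matches. The heat shock element of 4 units lies 294 to 311 bp before the HSPE1 start, in the window of the HSPD1 inner start.

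Every library had an HSF1 peak here, whether or not the cells had been heated and with or without FBXW7. The scores, which are the authors' own values on a scale that is not stated, put it at or next to the top of each list. In untreated WT cells the peak scored 663 and ranked 1 of 79. Heat shock replicates 1 and 2 of WT gave scores of 872 and 892, at ranks 1 of 225 and 1 of 131. In untreated KO cells it scored 3100 and shared rank 1 of 2866 with the other peaks at that score, 4 in all. In KO heat shock replicates 1 and 2 it scored 2700.4 and 3100, ranking 1 of 1566 and sharing rank 2 of 3257. In replicate 2, 3 peaks had exactly 3100 and 1 peak was above it at 3188, so the order among these top peaks cannot be read. A value of exactly 3100, given to 7 peaks in these 2 lists, may be a placeholder of the caller rather than a measured score, which the files do not settle. A peak in all 6 lists was found at 37 of 6597 joined regions (0.561%). The shortest list, untreated WT with 79 peaks, limits this share, so it is no measure of how unusual the region is.

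How far the HSPD1 and HSPE1 peak stood above the rest of its list differed between the lines. In untreated WT and WT heat shock replicates 1 and 2 its score was 1.67, 1.66 and 1.72 times the next highest. In KO heat shock replicate 1 it was 1.27 times the next highest. In untreated KO it tied with the next (ratio 1), and in KO heat shock replicate 2 it stood at 0.972 of the highest. All 3 WT ratios were thus above all 3 KO ratios, but both low KO ratios rest on scores of exactly 3100. Against the median score of its list, the ratios were higher in KO. The peak was 9.33, 12.7 and 14 times the median in untreated WT and WT heat shock replicates 1 and 2, and 52.9, 45.3 and 53.3 times in untreated KO and KO heat shock replicates 1 and 2, where the first and last again rest on 3100. Against the median of the 37 regions found in every list, WT was higher again, at 6.35, 6.41 and 8.04 times, with 2.95, 5.08 and 3.05 times in KO in the same order of libraries. The order of the lines thus depends on the reference chosen. The KO lists are longer and their median scores lower (58.1 to 59.6, against 63.5 to 71.1 in WT). The lowest scores of the lists were 50 to 50.4, not far below these medians. Read depth, on which scores depend, is unknown. The scale of the scores is not stated, so these ratios cannot be read as fold differences in signal. They describe each list, and no difference in HSF1 binding between the lines was tested with them.

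**Figure D2:**
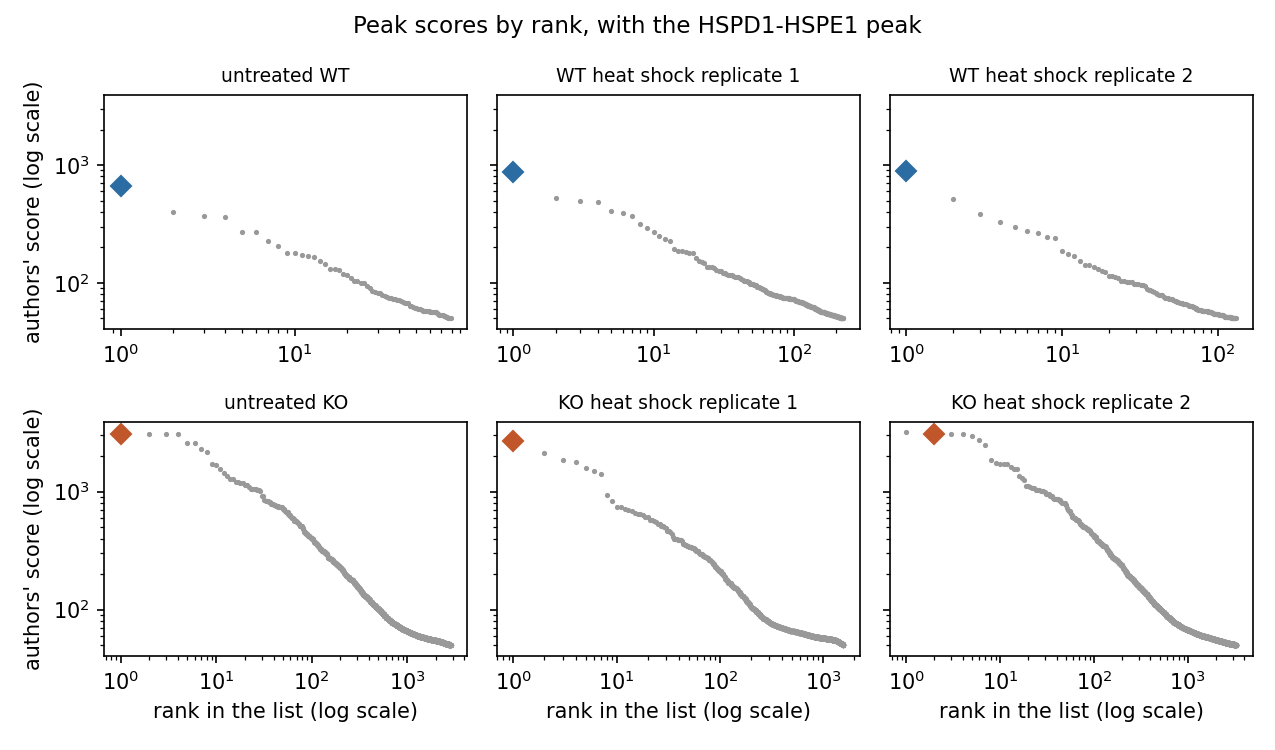
Score of every peak (grey points) against its rank in each of the 6 lists, both on log scales, with the HSPD1 and HSPE1 peak as a diamond, blue in WT and orange in KO. The diamond stands apart at the top of the 3 WT lists (663, 872 and 892) and joins a group of peaks at 3100 in untreated KO and KO heat shock replicate 2.

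Heating was accompanied by no gain or loss of the peak in either line, since it was already listed without heat. In WT cells both heat shock scores (872 and 892) lay above the untreated score (663). In KO cells the score was 2700.4 in heat shock replicate 1 and 3100 in replicate 2 and in the untreated library, and since 3100 may be a placeholder no order is read from these. With 1 untreated library per line there is no test, and the scores of separate libraries are not known to be on a common scale.

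On chromosome 2 the peak had the highest score in every list. Its score was 2.73 to 9.37 times the second highest on the chromosome, the lowest ratio in untreated KO (from a score of 3100) and the highest in WT heat shock replicate 2. No other peak was listed within the 10 kb window. The WT lists held 7, 13 and 6 peaks on chromosome 2 in untreated WT and WT heat shock replicates 1 and 2. The KO lists held 170, 103 and 218 in untreated KO and KO heat shock replicates 1 and 2. Distances to the nearest peak depend on these counts, so they are no measure of how unusual the region is. The nearest on the lower side lay 231 to 699.9 kb away in the KO lists, with scores of 55.3, 70.5 and 58.7 in untreated KO and KO heat shock replicates 1 and 2, against list medians of 58.6, 59.6 and 58.1. On the upper side the nearest KO peaks lay 354, 3181 and 2806 kb away in untreated KO and KO heat shock replicates 1 and 2. In WT lists the nearest lower peak was much further off (65343, 65329 and 91827 kb for untreated WT, then WT heat shock replicates 1 and 2), and no WT peak followed on the upper side. No list thus held another peak within 231 kb of the pair, whose nearest protein-coding neighbours in RefSeq are COQ10B and MOB4.

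The 6 peaks were centred close to the approximate gene starts and nested inside each other. Their starts and ends ran from chr2:198364421-198365073 in KO heat shock replicate 1 (653 bp), through chr2:198364421-198365234 in untreated KO (814 bp) and chr2:198364224-198365301 in KO heat shock replicate 2 (1078 bp), to the WT peaks. These were chr2:198364013-198365538 in WT heat shock replicate 1 (1526 bp), chr2:198363984-198365605 in replicate 2 (1622 bp) and chr2:198363695-198365679 in untreated WT (1985 bp). Each peak lay wholly within the next wider, so the 653 bp of KO heat shock replicate 1 were common to all 6. For the regions found in every list, nesting was judged on the best-scoring peak of each list. Such nesting was seen at 2 of these 37 regions (5.41%). The other was chr22:41251746-41253536, which held 10 peaks in all.

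Each peak covered the approximate hg19 starts used to place the window, chr2:198364700 for HSPD1 and chr2:198364750 for HSPE1. These are rounded positions and lie closer together (50 bp) than the RefSeq starts on GRCh38, so the distances are approximate by at least the difference between these annotations. Centres lay at -13, 75.5 and 94.5 bp from the HSPD1 position in untreated WT and WT heat shock replicates 1 and 2, counted as positive towards HSPE1. In untreated KO and KO heat shock replicates 1 and 2 they lay at 127.5, 47 and 62.5 bp. From the HSPE1 position the same centres, in the same order, lay at -63, 25.5 and 44.5 bp (WT) and at 77.5, -3 and 12.5 bp (KO). All 6 centres thus fell within 140.5 bp of each other, against a median span of 157.5 bp over the 37 regions. Between 48.1 and 62.5% of each peak lay on the HSPE1 side of the approximate midpoint, so both sides of that midpoint were covered in every library. The RefSeq starts of HSPD1 lie 105 and 539 bp from that of HSPE1. Whether each peak covers these RefSeq starts was not determined.

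**Figure D3:**
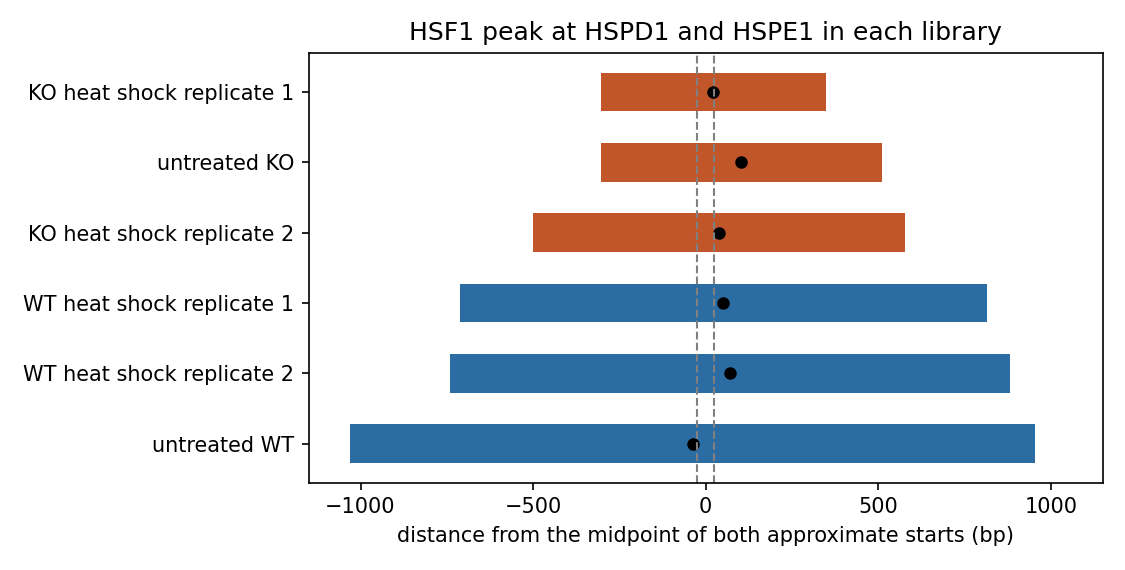
Extent of the peak in each library (bars, blue in WT and orange in KO, with dots for the centres) against distance in bp from the midpoint of the approximate HSPD1 and HSPE1 starts (dashed lines, HSPD1 on the left). The bars are nested, from 653 bp in KO heat shock replicate 1 to 1985 bp in untreated WT.

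After heat shock the peak was narrower in KO (653 and 1078 bp) than in WT (1526 and 1622 bp), and the lines did not overlap. On the log2 scale the difference was -0.91 (KO 9.71 ± 0.51, WT 10.6 ± 0.062, SD, n = 2 per line), with p = 0.333 in a two-sided exact permutation test, which cannot give less at this size. It was -0.55 without KO heat shock replicate 1. With the untreated libraries included it was -1.03 (n = 3 per line, exact permutation p = 0.1). That p is again the smallest possible at this size, and treatment was not taken into account. The same direction held over the region set, with each region represented in a list by its best-scoring peak. Each such WT peak was wider than each such KO peak at 37 of 37 regions (100%), with a median log2 difference of -1.25 after heat shock. At 4 of the 37 the difference was smaller in size than at HSPD1 and HSPE1, namely chr14:102552691-102554346, chr13:31190920-31192725, chr2:62114812-62116441 and chr17:41381099-41382717. The lists also differed in width as a whole. Median widths were 155 and 181 bp in KO heat shock replicates 1 and 2, and 1468 and 1443 bp in those of WT. Relative to its own list the order turned: the peak was 4.21 and 5.96 times the median width in the KO heat shock lists and 1.04 and 1.12 times in the WT lists (log2 difference 2.21, exact permutation p = 0.333). In the KO lists it was among the widest, with 14, 17 and 7 wider peaks in untreated KO and KO heat shock replicates 1 and 2, and 98.9 to 99.8% of each list narrower. In the WT lists 53.8 to 68.7% were narrower. Width depends on the settings and depth behind each list, and their part in the difference was not tested.

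Width and centre were also set beside the untreated libraries. In WT cells both heat shock peaks were narrower than the untreated peak, by log2 differences of -0.38 and -0.29, as at 24 of the 37 regions (64.9%). In KO cells replicate 1 was narrower (-0.32) and replicate 2 wider (0.41), so the spread between replicates exceeded their mean of 0.044. The centre in WT cells lay 88.5 and 107.5 bp further towards HSPE1 after heat shock than without it. In KO cells it lay further towards HSPD1 (-80.5 and -65 bp). Such opposite directions were seen at 8 of the 37 regions (21.6%), and with 1 untreated library per line they were not tested. Between the lines after heat shock, KO and WT centres lay 29.75 ± 11 and 60 ± 13.4 bp beyond the midpoint, towards HSPE1 (SD, n = 2 per line). The difference of -30.25 bp gave p = 0.333 in the same exact permutation test. With the untreated libraries included, the order turned, to 26.7 bp closer to HSPE1 in KO (exact permutation p = 0.6). Treatment was not taken into account there.

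The regions closest to HSPD1 and HSPE1 in their ranks over the 6 lists were, in order, chr14:102552691-102554346 (region A), chr13:31190920-31192725 (B), chr19:1353842-1355364 (C), chr13:31734751-31737082 (D) and chr13:34116222-34117822 (E). Likeness was the mean absolute difference of log2 rank over the 6 lists, 1.2 for A, 1.22 for B, 1.81 for C, 1.97 for D and 2.29 for E. In all 3 WT lists and in KO heat shock replicate 1 the HSPD1 and HSPE1 peak scored above each of the 5. This follows from its untied rank of 1 in these lists. The margin over region A was 1.83 in untreated WT, 1.75 and 2.7 in the WT heat shock libraries (replicates 1 and 2) and 1.47 in KO heat shock replicate 1. Over region C it was 1.8 in untreated WT and 3.85 and 5.25 in WT heat shock replicates 1 and 2, so that both heat shock values exceeded the untreated value there. Over region D the untreated margin (3.23) was above both heat shock margins (1.66 and 2.34), the reverse order. In untreated KO regions A, B and C were listed at 3100 like the HSPD1 and HSPE1 peak. In KO heat shock replicate 2 region B was listed at 3188 and the HSPD1 and HSPE1 peak at 3100. Since 3100 may be a placeholder, no order is read in these 2 lists. Of these 5, region D also had heat shock centres on opposite sides of the untreated centre in the lines. In none were the best-scoring peaks of the 6 lists nested. These regions are given by position, since the annotation used here is of another build.

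**Figure D4:**
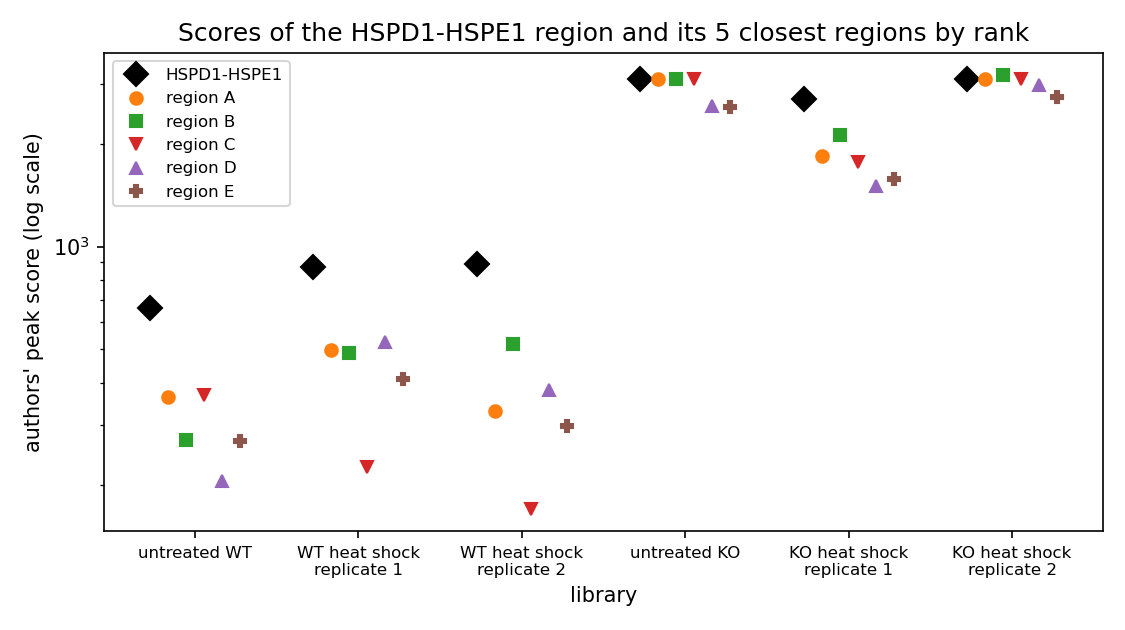
Scores (log scale) of the HSPD1 and HSPE1 peak (black diamonds) and of its 5 closest regions by rank, A to E, in each of the 6 libraries, to be compared within a library since depth is unknown. The diamond is highest in the 3 WT libraries and in KO heat shock replicate 1, and meets regions A, B and C near 3100 in the other 2 KO libraries.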

How the data were processed

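HSF1 ChIP-seq peak lists of 6 libraries were used, grouped by sample title; 4 input libraries were not analysed here. The submitters' processing notes list CASAVA, Bowtie 0.12.7, MACS 1.4.2 and hg19, with no roles given. Each list was called against the input of its line and condition, per the file labels. The deposited value of each peak is the authors' score, whose scale, settings and read depth are not given in the sources used here.

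Positions were made 1-based, and peaks overlapping the window by at least 1 bp were ranked by score within their list, ties sharing the lowest rank. Overlapping peaks were joined into regions, each represented in a list by its best peak. Log2 width and centre were compared by exact permutation. Joining, ranking and motif search were tested on simulated data. Promoters of RefSeq (GRCh38.p14) were matched by symbol, for HSPD1, HSPE1, 9 of 12 mitochondrial and 15 of 16 cytosolic genes. No hg19 annotation was used, so peaks at those genes were not counted. The 5 regions named beside the pair were those closest in log2 rank; those named for nesting or width were chosen after their values were seen. Members and lists were chosen with earlier results of these data known. Alternatives covered the overlap rule, a score minimum of 100, ties, chromosomes, joining within 1000 bp, the widest 5% of peaks, reference values, position, pairing, motif mismatches and each heat shock library. Python 3.11.15, numpy 2.4.6, pandas 2.3.3 and matplotlib 3.10.9 were used.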

Additional observations from a re-analysis of the deposited data

Results flagged for a closer look

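The centre of the HSPD1 and HSPE1 peak after heat shock lay on opposite sides of the untreated centre in WT and KO cells. In WT cells it lay a mean of 98 bp further towards HSPE1 than in the untreated library (88.5 and 107.5 bp). In KO cells the mean was -72.75 bp, that is towards HSPD1 (-80.5 and -65 bp). All 4 heat shock libraries follow this split, but both shifts of a line are measured from the same single untreated library. They are therefore not 4 separate observations, and no test was made of the split. Opposite directions in the lines were seen at 8 of the 37 regions found in every list (21.6%), this region included, so the split is not particular to it. The shifts are small beside the peak widths of 653 to 1985 bp.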

How the results depend on the processing

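The peak was present in 6 of 6 lists when it had to cover an approximate start and at a score of at least 100. Its highest rank number over the lists, 2, became 4 with the last and 3 with the mean rank among ties, 1 without the widest 5% of peaks, and stayed at 2 on chromosomes 1 to 22 and X and with joined peaks. The value of 1 says nothing about the rank, since the peak is itself among the widest 5% of each KO list and was kept while the narrower peak above it in KO heat shock replicate 2 was dropped. The median score ratio over the lists, 29.7 times the list median, was 10.2 among peaks of at least 100, 5.71 over the median of regions found in all lists and 1.46 over the highest other score. The KO to WT width difference turned from -0.91 to 2.21 when divided by each list's median width. The centre difference of -30.25 bp became 324 bp for peak starts and -384.5 bp for peak ends, since the WT peak extends further on both sides, and 26.7 bp over all libraries of each line. Leaving out each heat shock library gave -1.27 to -0.55 for width and -39.75 to -20.75 bp for the centre. For heat shock against untreated, leaving out a library gave -0.38 to -0.29 (WT log2 width), 88.5 to 107.5 bp (WT centre), -0.32 to 0.41 (KO log2 width) and -80.5 to -65 bp (KO centre). With the replicate number as a block, the differences were unchanged at -0.91 and -30.25 bp (exact permutation p = 0.5 each, the smallest that 2 pairs can give); the labels tie no replicates of the lines together, so the block rests on the number alone. Motif matches rose from 2 to 3 with a mismatch allowed or with pairs of units, which occur in 6.24% and 13.5% of all windows. All of these matches lay within the element of 4 units or overlapped it, so no separate site was added. Unknown depth limits every score, rank and width.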
